A study of Homo sapiens with 6 samples.

Results

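The MCM helicase and origin licensing genes were followed in the RNA of HaCaT cells, in 3 WT lines and 3 lines with a knockout (KO) of *FGFR2*, each sequenced once. They are the 6 subunit genes *MCM2*, *MCM3*, *MCM4*, *MCM5*, *MCM6* and *MCM7*, together with *MCM10*, *CDC6*, *CDT1* and *ORC1*. The genes were chosen by name, through the match of their Ensembl identifiers to GENCODE symbols, and all 10 were found among the 21475 genes of the series. HaCaT cells are human keratinocytes that became immortal spontaneously in culture, and all lines grew in serum-containing medium without an added stimulus. The KO lines had been made by electroporation of Cas9 protein with an sgRNA against an exon of *FGFR2*, single-cell sorting and clonal expansion, so that each KO line is 1 clone. The WT lines of the study included the parental population and clones, and the HaCaT lines of this RNA-seq are described as clonally expanded. The sample labels do not tie a replicate to a named line.

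Before a cell can copy its DNA, each origin of replication has to be licensed. The origin recognition complex, with ORC1 as its largest subunit, binds the DNA and recruits the ATPase CDC6, and CDT1 then brings in the ring of MCM2 to MCM7, which is loaded around the DNA as an inactive helicase. At the start of S phase, kinases and further factors, among them MCM10, turn the ring into an active helicase that unwinds the DNA ahead of the polymerases. Licensing is restricted to the time between mitosis and S phase, and CDT1 is held in check by geminin and by regulated degradation. The genes of these proteins are known targets of the E2F transcription factors and are expressed by proliferating cells, including basal keratinocytes.

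Levels were analysed as the FPKM values that the authors deposited, which account for gene length and library depth, so that different genes can be compared. Wherever 3 values stand for a genotype, they are those of replicates 1, 2 and 3 in this order. Depth was estimated from the steps between low values as 67200000 to 87000000 fragments per library, at which a single fragment from 1 kb of transcript adds at most 0.0149 FPKM. The lowest level of any licensing gene in any library was 4.25 FPKM, far above this limit. *FGFR2* itself, which checks the labels, was at 21.6, 39.7 and 15.0 (WT) against 3.04, 2.26 and 4.31 (KO) FPKM. All 7 keratinocyte markers examined, such as *KRT5*, *KRT14* and *TP63*, were expressed in every library. Of 4 markers each, *PTPRC* and *CD3E* for leukocytes, *COL1A2* and *PDGFRA* for fibroblasts and *MLANA*, *TYR* and *DCT* for melanocytes were at or near 0. The others were detected: *CD68* had a mean of 14.5 FPKM in WT and 8.10 FPKM in KO, with every KO below every WT library, *COL1A1* 13.1 and 8.90 FPKM, *PMEL* 1.43 and 0.87 FPKM, *CD14* 1.02 and 0.74 FPKM, and *LUM* up to 1.85 FPKM, in KO replicate 1. Their part in the results was not tested. The mitochondrial share of the FPKM was 27.6%, 21.5% and 22.2% (WT) against 15.8%, 23.7% and 11.9% (KO).

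The transcripts of the helicase subunits were not at equal levels. *MCM4* had the highest level of the 10 genes in all 6 libraries and *MCM7* the next highest in all 6, while *ORC1* was lowest and *MCM10* next to lowest in all 6. Between these ends, *MCM2*, *MCM5* and *MCM3* followed in an order that differed between libraries, and *CDC6* lay below *MCM3* in 5 of 6 libraries. *MCM6* and *CDT1* were neighbours as well, with *MCM6* higher in 4 of 6 libraries. Of the 9 neighbouring pairs in the order of the mean levels, 5 kept their order in every library and 4 did not. No test was run between different genes.

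All 10 genes had higher FPKM in each KO library than in any WT library, by 1.79-fold for *CDT1* to 2.97-fold for *MCM6* in the ratio of the means. Among all tested genes, every KO library lay above every WT library for 18.3%. In each of the 10 genes, WT replicate 2 was the lowest library, WT replicate 3 the highest WT library and KO replicate 3 the highest of all. The lowest KO library was KO replicate 2 for 6 genes and KO replicate 1 for 4 genes.

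**Figure D1:**
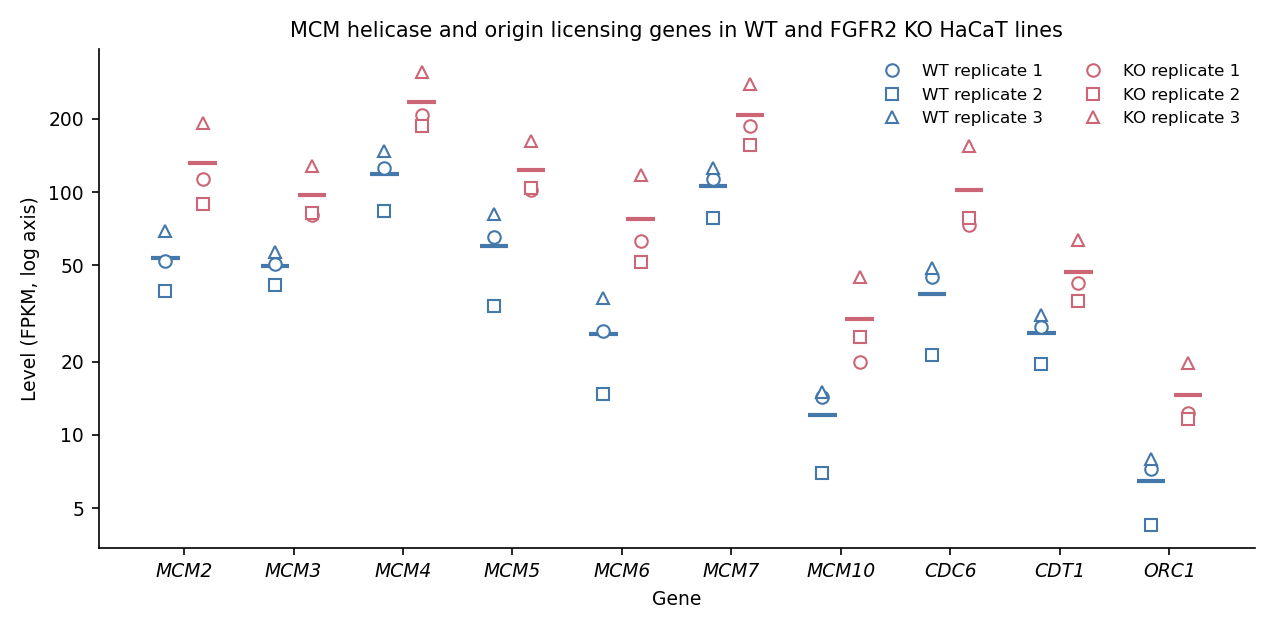
Level of each gene in FPKM on a log axis, for WT (blue) and *FGFR2* KO (red) lines. Each symbol is 1 library, with circles, squares and triangles for replicates 1, 2 and 3, and horizontal bars are the means of 3 libraries. For all 10 genes the 3 KO libraries lie above the 3 WT libraries, with WT replicate 2 lowest and KO replicate 3 highest.

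*MCM2*, whose product forms part of the ring at the gate through which DNA enters, was at 52.3, 39.1 and 68.9 (WT) against 113, 89.1 and 192 (KO) FPKM. The gene (ENSG00000073111) lies on chromosome 3 from 127598410 to 127622436 in GRCh38, on the plus strand. Its mean was 53.4 ± 14.9 FPKM for the WT and 131 ± 53.7 FPKM for the KO genotype (SD, n = 3 lines each). KO replicate 3 had more than KO replicates 1 and 2, and the groups did not overlap.

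*MCM6* showed the largest fold difference of the 10 genes. It had 26.7, 14.7 and 36.7 (WT) against 62.9, 51.6 and 118 (KO) FPKM. The lowest KO value was thus 1.41 times the highest WT value. *MCM6* (ENSG00000076003) lies on chromosome 2 from 135839626 to 135876443 on the minus strand. Its levels also spread most within the groups, by 2.5-fold among the WT and 2.28-fold among the KO libraries.

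*MCM4*, one of the subunits of the tight catalytic core together with *MCM6* and *MCM7*, was at 126, 83.4 and 147 (WT) against 208, 186 and 312 (KO) FPKM. *MCM7* had 114, 78.2 and 125 (WT) against 188, 156 and 278 (KO) FPKM. Both genes kept their rank at the top of the group while lying about 2 times higher in the KO lines, with ratios of the means of 1.98 and 1.96. *MCM4* (ENSG00000104738) is located on chromosome 8 from 47960185 to 47978160 on the plus strand, and *MCM7* (ENSG00000166508) on chromosome 7 from 100092233 to 100101940 on the minus strand.

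*MCM3*, the partner of *MCM5* in the ring, had the most even levels within the groups. It was at 50.5, 41.4 and 56.7 (WT) against 80.3, 82.1 and 129 (KO) FPKM. *MCM5* had 65.6, 33.8 and 81.0 (WT) against 102, 104 and 163 (KO) FPKM. WT replicate 2 lay further from the other WT libraries for *MCM5* than for *MCM3*, with a range of 2.39-fold against 1.37-fold among the WT lines. *MCM3* (ENSG00000112118) lies on chromosome 6 from 52264014 to 52284881 on the minus strand, and *MCM5* (ENSG00000100297) on chromosome 22 from 35400134 to 35425431 on the plus strand.

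Among the loading factors, *CDC6* (ENSG00000094804, chromosome 17 from 40287879 to 40304657, plus strand) had the widest gap between the groups. Its level was 44.6, 21.3 and 48.6 (WT) against 72.9, 78.6 and 155 (KO) FPKM, so that the lowest KO library had 1.5 times the level of the highest WT library. *CDT1* (ENSG00000167513, chromosome 16 from 88803789 to 88809258, plus strand) had the narrowest gap, 1.14-fold. It was at 27.9, 19.7 and 31.3 (WT) against 42.2, 35.8 and 63.3 (KO) FPKM.

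*ORC1*, the only ORC subunit gene in the group, was at 7.25, 4.25 and 7.93 (WT) against 12.3, 11.7 and 19.8 (KO) FPKM. It lies on chromosome 1 from 52372829 to 52404423 on the minus strand (ENSG00000085840). *MCM10*, which is not part of the ring but is needed for its activation, had 14.3, 6.95 and 15.0 (WT) against 20.01, 25.3 and 44.7 (KO) FPKM. KO replicate 1 was the lowest KO library for this gene. *MCM10* (ENSG00000065328) lies on chromosome 10 from 13161558 to 13211110 on the plus strand, and the 463 tested genes there had a median of -0.33 in KO replicate 1, on the log2 scale relative to the WT mean, against 0.10 for all tested genes. After centring each chromosome of each library on its median, *MCM10* had a log2 fold change of 1.42 in place of 1.27. The same step lowered every other licensing gene, such as *MCM4* from 0.99 to 0.77 and *MCM5* from 1.08 to 0.89. The median of the 10 genes went from 1.10 to 0.96.

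To compare the groups across all genes, limma with a mean-variance trend was fitted to log2(FPKM + 0.5) of the 12241 genes whose mean reached 0.5 FPKM. Calls needed a Benjamini-Hochberg adjusted p up to 0.05 and a log2 fold change of 0.5 or more in size. None of the 10 licensing genes was called, nor was any other gene, *FGFR2* included (0% of those tested), and the adjusted p of each of the 10 was 0.261, the smallest of the whole table. This count belongs to limma on FPKM. The study, with DESeq2, reported differentially expressed genes, *FGFR2* strongly lower among them, and pathway enrichment that included cell cycle and DNA replication. In serum-containing medium, it found WT and KO lines not to differ in proliferation, scored by nuclei positive for the marker Ki67, in viability or in senescence. With library weights estimated by limma, which favoured WT replicate 1, 1396 genes and 9 of the 10 were called, all but *MCM10*. With the p unadjusted and the same limits, called the unadjusted rule here, all 10 were higher in KO, against 10.2% of all tested genes (1251 higher, while 285 were lower). With median-of-ratios scaling between the libraries this background was 785 higher and 521 lower, and the licensing genes still numbered 10 of 10. The log2 fold change was 1.56 for *MCM6* (standard error 0.40, unadjusted p = 0.00489 from limma), 1.41 for *CDC6* (standard error 0.39), 1.27 for *MCM10* (0.37), 1.25 for *MCM2* (0.31), 1.11 for *ORC1* (0.29) and 1.08 for *MCM5* (0.34). It was 0.99 for *MCM4* (standard error 0.27), 0.96 for *MCM7* (0.26), 0.94 for *MCM3* (0.22, unadjusted p = 0.00297 from limma, the smallest of the 10) and 0.81 for *CDT1* (0.25).

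The median over the 10 genes was 1.10, and over all tested genes 0.09. Only 496 of the 12241 tested genes (4.05%) had a log2 fold change of at least that of *CDT1*, the lowest of the 10, and 32, *MCM6* included, of at least that of *MCM6*. For a single gene, the two-sided exact permutation test of 3 against 3 libraries gave p = 0.1 for each of the 10, which is the smallest p this design allows. The genes are not 10 independent observations, since they were measured in the same 6 libraries. Because RNA was extracted from whole cultures, more cells in the phases that express these genes and more RNA per cell cannot be told apart.

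KO replicate 3, the library with the highest levels, had the lowest mitochondrial share. With each library scaled to the summed FPKM of its nuclear genes, the 10 genes still lay higher in every KO than in every WT library. The share of all tested genes that did so under this scaling was not calculated. By the unadjusted rule, the background under this scaling was 930 higher and 400 lower genes. The median log2 fold change of the 10 genes was 1.02. Without KO replicate 3 the median was 0.87, and 9 of 10 genes passed the unadjusted rule; the exception was *MCM5*, with a log2 fold change of 0.86 (unadjusted p = 0.0524 from limma). The background without this library was 539 higher genes, and without WT replicate 1 it was 767. Leaving out WT replicate 2, in which the 10 genes were lowest, gave a median of 0.84 and lowered *MCM5* to 0.71.

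The partners of these genes in licensing were described next. The 5 other ORC subunit genes, *ORC2* to *ORC6*, had a median log2 fold change of 0.42, and 2 of them were higher in KO by the unadjusted rule. *ORC6* was at 14.1, 11.7 and 18.6 (WT) against 29.3, 23.7 and 36.0 (KO) FPKM. Its log2 fold change was 0.98 (standard error 0.22, adjusted p = 0.261 from limma). The other one was *ORC3*, with 0.50 (standard error 0.17). *ORC2* (0.29), *ORC5* (0.42) and *ORC4* (0.15) did not pass even the unadjusted threshold. Relative to the mean of *ORC2* to *ORC6*, *ORC1* was at 0.469, 0.327 and 0.486 (WT) against 0.576, 0.638 and 0.788 (KO), without overlap. This ratio and those below were chosen after the values had been seen and were not tested.

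Of 9 genes that control licensing, 4 were higher in KO by the unadjusted rule and 0 were lower, with a median log2 fold change of 0.50. *GMNN*, which encodes the CDT1 inhibitor geminin, was at 23.5, 17.2 and 27.2 (WT) against 30.4, 31.7 and 49.9 (KO) FPKM. The log2 difference between the groups was 0.70 (standard error 0.24). The FPKM ratio of *CDT1* to *GMNN* was 1.19, 1.14 and 1.15 (WT) against 1.39, 1.13 and 1.27 (KO), so that the groups overlapped. *DTL*, the receptor through which the CUL4 ubiquitin ligase recognizes CDT1 during S phase, averaged 9.07 ± 4.05 FPKM without and 25.4 ± 12.9 FPKM with the knockout (SD, n = 3 lines each), which is 1.43 on the log2 scale of the fit (standard error 0.43). *SKP2*, the substrate receptor of another ligase that acts on CDT1, had 0.64 and *LRWD1*, which encodes an ORC-associated protein, had 0.60. The ligase genes *CUL4A* (0.17), *CUL4B* (-0.21) and *DDB1* (0.06) were among the 5 genes that did not pass.

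The proteins that turn the loaded ring into a moving helicase formed the list with the highest median outside the licensing genes. Of 17 genes, 12 were higher in KO by the unadjusted rule, 0 were lower, and the median log2 fold change was 0.86. *CDC45*, which joins the ring as part of the active helicase, was at 19.4, 9.70 and 28.0 (WT) against 45.9, 37.9 and 80.8 (KO) FPKM. Its log2 fold change of 1.55 (standard error 0.41, adjusted p = 0.261 from limma) was similar in size to that of *MCM6*. *RECQL4* and *TIMELESS*, with products at starting and moving forks, had 0.96 (standard error 0.23) and 0.77 (standard error 0.20). The GINS genes, which encode the other cofactor of the helicase, had 1.36 (*GINS2*), 0.91 (*GINS1*), 0.86 (*GINS4*) and 0.52 (*GINS3*, which did not pass the unadjusted threshold). The kinase gene *CDC7* had 0.72 (standard error 0.27), whereas its activating subunits *DBF4* and *DBF4B* had 0.12 and 0.08, with overlapping groups. Of 5 other MCM family and partner genes tested, 3 were higher by the unadjusted rule. The paralogs *MCM8* and *MCM9* had log2 fold changes of 0.64 and 0.30, *MCMBP* 0.54, *MCM3AP* 0.67 and *HROB* 0.58, and *MCMDC2* was under the minimum level for the test.

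The replication fork genes and the G2 and mitosis genes are expressed in the same proliferating cells. The 29 genes listed for the fork included the chromatin assembly genes *CHAF1A* and *CHAF1B*. Of these 29, 23 were higher and 1, *POLD4*, was lower in KO by the unadjusted rule, with a median of 0.72. *POLA1* and *POLA2*, of the polymerase that makes the primers, had log2 fold changes of 0.95 and 1.04, *RFC3*, of the clamp loader, 0.96, and *RPA2*, of the single-strand binding protein, 0.80. Of 21 genes of G2 and mitosis, 0 were higher and 0 lower by the same rule, and the median was -0.05. The kinase gene *AURKB* had a log2 fold change of 0.35, and the mitotic genes *CENPE*, *KIF20A* and *HMMR* had -0.38, -0.37 and -0.34. *AURKB* (unadjusted p = 0.0379) and *CENPE* (unadjusted p = 0.0492, both from limma) missed the rule only in the size of the fold change. Every KO library lay above every WT library for *AURKB* alone, and below for *CENPE* alone. Among the 12241 tested genes this held for 2245 and 706. The median of the G2 and mitosis genes lay between -0.17 and -0.01 over the scalings and between -0.20 and 0.0024 with a library left out. The cyclin gene *CCNB1* was at 155, 148 and 177 (WT) against 160.5, 134 and 168 (KO) FPKM, with overlapping groups. The FPKM ratio of *MCM2* to *CCNB1* was accordingly 0.338, 0.265 and 0.390 (WT) against 0.704, 0.663 and 1.14 (KO). For *MKI67*, the gene of the proliferation marker Ki67, the log2 difference was -0.40 (standard error 0.27, adjusted p = 0.469 from limma). No test was run of the difference between these lists.

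By library, the median log2 difference of the 10 licensing genes from the WT mean was 0.13, -0.49 and 0.36 (WT) against 0.85, 0.81 and 1.55 (KO). The firing factors followed the same order of libraries in the KO group, with 0.70, 0.59 and 1.25, and the fork genes as well, with 0.58, 0.50 and 1.08. The G2 and mitosis genes were at -0.06, -0.05 and -0.06 in the KO libraries, but they too were lowest in WT replicate 2, at -0.32. Suprabasal keratinocyte markers summed to 1366 to 7369 FPKM in the WT libraries and to 427 to 4616 FPKM in the KO libraries. These sums, carried mostly by *KRT1* and *KRT10*, were lowest in KO replicate 3, where the licensing genes were highest, and highest in WT replicate 3, the WT library with the highest licensing genes. *IVL*, which encodes involucrin, went another way, with 338, 324 and 180.3 (WT) against 79.7, 265 and 81.8 (KO) FPKM, and was the 1 marker of the 4 that was lower in KO by the unadjusted rule (log2 difference -1.17, unadjusted p = 0.0432 from limma). The part of these markers in the result was not tested.

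**Figure D2:**
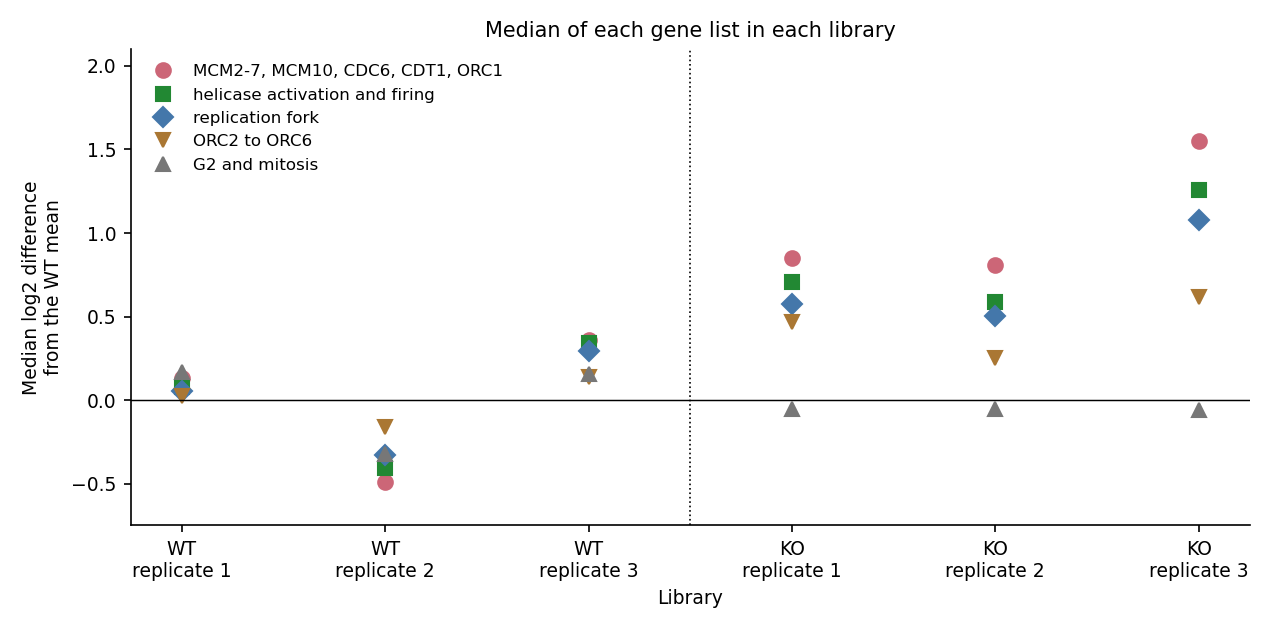
Median log2 difference from the WT mean for 5 gene lists in each library, with WT libraries left and KO libraries right of the dotted line. The licensing genes (red circles) reach 0.81 to 1.55 in the KO libraries, while the G2 and mitosis genes (grey triangles) stay between -0.06 and -0.05 there.

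Because the ring holds each of its 6 subunits once, the composition of the *MCM2* to *MCM7* transcripts was also compared. Their FPKM added up to 435, 291 and 515 (WT) against 753, 669.7 and 1191 (KO). *MCM4* contributed 29.0%, 28.7% and 28.5% (WT) against 27.6%, 27.8% and 26.2% (KO). *MCM6*, the subunit with the lowest share in every library, contributed 6.14%, 5.05% and 7.12% (WT) against 8.35%, 7.70% and 9.88% (KO). For these 2 subunits the groups did not overlap, whereas they overlapped for *MCM2*, *MCM3*, *MCM5* and *MCM7*. The separation was narrow for *MCM4*, with 28.5% as the lowest WT and 27.8% as the highest KO share. The shares were not tested, and no background was calculated to set beside this count. Shares add up to 100%, so that a higher share of 1 subunit lowers those of the others. Of the loading factors, *CDC6* was higher relative to *CDT1* in the KO lines, with an FPKM ratio of 1.60, 1.08 and 1.55 (WT) against 1.73, 2.20 and 2.44 (KO).

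Several of these genes start next to a gene on the opposite strand. Of 4 such neighbours, 1 had every KO library above every WT library, against 18.3% of all tested genes. *PRKDC*, which encodes the catalytic subunit of DNA-dependent protein kinase and starts 7 bases from *MCM4*, was at 43.6, 34.0 and 55.02 (WT) against 55.5, 66.3 and 85.2 (KO) FPKM. Its groups did not overlap, but only by a factor of 1.01, and its log2 fold change was 0.64 (standard error 0.22, adjusted p = 0.261 from limma). For *TPRA1*, 143 bases from *MCM2*, the log2 difference was 0.11 (standard error 0.19), *PRPF38A*, 179 bases from *ORC1*, had 0.23 (standard error 0.17), and *AP4M1*, which overlaps the start of *MCM7*, had -0.01 (standard error 0.14). In these 3 neighbours the groups overlapped. The library kit keeps the strand of the RNA; whether the counting used it is not given in the sources used here.

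When all tested genes were ranked by how closely their profile over the 6 libraries followed the mean profile of the 10, measured as the root mean square difference of centred log2(FPKM + 0.5) values, the nearest outside the group were *EXOSC2* (0.078), *VARS1* (0.089), *LYAR* (0.091), *BLM* (0.094), *TIPIN* (0.096) and *FAM111B* (0.096). Over all tested genes the median of this difference was 0.68. *BLM* encodes a DNA helicase and *TIPIN* a protein of the replication fork, whereas *EXOSC2* encodes a subunit of the RNA exosome and *VARS1* the valyl-tRNA synthetase. *EXOSC2* was at 27.0, 19.0 and 32.0 (WT) against 50.4, 43.3 and 77.1 (KO) FPKM. Within the group, *ORC1* was closest to the mean profile (0.047) and *MCM6* furthest from it (0.26). Of the 25 genes closest to the mean profile, 2 were licensing genes, so that many other genes followed it more closely than most of the 10 did.

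The promoters of the genes were searched for the E2F consensus in its 4 spellings TTTCCCGC, TTTCGCGC, TTTGCCGC and TTTGGCGC, on both strands. RefSeq windows from 250 bases before to 50 bases after the gene start in GRCh38.p14 were used for 8 of the 10 genes, all but *MCM4* and *MCM5*, and 6 of these 8 held at least 1 word. Among 35116 windows of the same length, 3.31% did, and among 27305 genes 3.99% did in any of their windows. The corresponding counts were 7 of 13 genes for the firing factors, 3 of 5 for the other MCM family and partner genes, 3 of 9 for the licensing control genes, 8 of 25 for the fork genes, 1 of 5 for *ORC2* to *ORC6* and 2 of 17 for the G2 and mitosis genes. *MCM10* and *ORC1* held no word in this window. A match is a description of the letters and not a measured binding site. No link between a match and the fold change was tested. Of the genes with a word, *MCM6* and *CDC6* had larger fold changes than *MCM10* and *ORC1*, which held none. *MCM3*, *MCM7* and *CDT1* had smaller ones, and *MCM2* lay between *MCM10* and *ORC1*.

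The matches are shown because they differ in form, with the word in capitals and the sequence on the strand of the gene. In *MCM2* and *MCM6* a word on the strand of the gene and a word on the other strand overlap in a run of 12 bases. In *MCM2* both words have the same spelling, and in *MCM6* they have different ones. Such a run occurs once in *MCM2*, just inside the transcript, and at 2 places before the start in *MCM6*.
MCM2, chr3:127598404-127598433, plus strand: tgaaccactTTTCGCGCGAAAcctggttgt
MCM6, chr2:135876575-135876604, minus strand: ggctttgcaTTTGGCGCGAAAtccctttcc
MCM6, chr2:135876513-135876542, minus strand: ttggtcaggTTTGGCGCGAAAtctccagct

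In *MCM3* 1 word spans the RefSeq start, and in *MCM7* 1 word lies just before it, from -9 to -2. A second one lies further upstream, at -174 in *MCM3* and, on the other strand, at -187 in *MCM7*. Positions are in bases from the RefSeq start. The GENCODE models of *MCM3* and *MCM7*, whose coordinates were given with their levels, begin further upstream, so that the word at the start of *MCM3* and both words of *MCM7* lie inside those models. *MCM7* has 3 RefSeq windows, and the words are in 1 of them.
MCM3, chr6:52284728-52284757, minus strand: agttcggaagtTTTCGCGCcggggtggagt
MCM7, chr7:100101388-100101417, minus strand: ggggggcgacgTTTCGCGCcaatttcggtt

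The loading factors *CDC6* and *CDT1* each held 1 word, just inside the transcript in *CDC6* and on the other strand before the start in *CDT1*.
CDC6, chr17:40287875-40287904, plus strand: ggccattcggaTTTGGCGCgagcgcggctg
CDT1, chr16:88803743-88803772, plus strand: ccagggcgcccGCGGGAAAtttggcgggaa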

How the data were processed

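RNA-seq libraries of 3 WT and 3 *FGFR2* KO HaCaT lines were grouped by the genotype in their labels. The authors trimmed reads with fastp (0.20.0), quantified genes with Kallisto (0.46.1) on GRCh38 and tested them with DESeq2. The values they deposited are FPKM, 1 column per library, and how these were calculated is not given in the sources used here. The tables list 21493 genes; 18 Y copies that repeat X values were left out. Symbols and positions are from GENCODE release 44, for 21400 genes. Depth was estimated on genes with a single transcript, where 40.4% to 72.2% of low values per library were whole fragments within 0.02 (4% by chance). This was too few to recover reads, so that no count model was fitted.

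limma 3.58.1 (R 4.3.3) compared KO with WT on log2(FPKM + 0.5), with no covariate, for genes whose mean reached 0.5 FPKM. A log2 fold change on this scale understates that of low genes. The fit was tested on simulated data, with noise drawn separately for each gene and limited in size, so that its power for these lines was not measured. The thresholds are those of the study. The alternatives were pseudocounts of 0.1 and 1, no filter or at least 2 FPKM, TPM, nuclear, median-of-ratios and quantile scaling, a trend-free or robust empirical Bayes step, library weights, a replicate block, removal of chromosome medians and leaving out each library. The genes, the lists and the tests were chosen with earlier results of these data known. Named are all 10 genes, genes of each list by smallest unadjusted p, opposite-strand neighbours, and the 6 nearest profiles; *CCNB1*, *MKI67* and list genes outside this rule were picked after their values were seen.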

Additional observations from a re-analysis of the deposited data

How the results depend on the processing

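Every licensing gene was higher in KO under each of the 19 alternatives, all drawn from the same 6 libraries. Before any such change, 7420 of all 12241 tested genes had a log2 fold change above 0. The median log2 fold change of the licensing genes was 0.77 with library weights and between 0.96 and 1.14 under the other alternatives that kept all libraries. Leaving out each library in turn gave medians between 0.84 and 1.30. With library weights, 1396 genes in all and 9 of the 10 licensing genes were called, *MCM10* being the exception (log2 fold change 0.75, adjusted p = 0.0652 from limma), in a fit that gave WT replicate 1 a weight of 10.3 and the other libraries 0.358 to 1.49; with every other alternative, 0 were called. The weights also lowered *CDC6* to 0.91. The median of all tested genes moved from 0.09 to 0.13 with TPM and to -0.02 with median-of-ratios scaling. By the unadjusted rule, the 1251 higher genes became 785, 803 and 761 with median-of-ratios, quantile and chromosome-median scaling, and the 285 lower genes 521, 502 and 490; they became 495 with library weights. Leaving out a library gave 539 (without KO replicate 3) to 1752 higher and 94 (without KO replicate 3) to 510 lower genes.

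The replicate block gave 0 called genes and a smallest adjusted p of 0.0972 for the licensing genes (limma). Deviations of same-numbered libraries correlated at -0.21, 0.22 and 0.05, so that the numbers were not taken to pair the lines. Neither WT replicate 1 nor WT replicate 3 correlated best with its own number, whereas WT replicate 2 did. With 3 lines per group, none of the genes could reach an exact p under 0.1. All 10 genes lay far above the level of a single fragment in every library.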
